A study of Caenorhabditis elegans with 4 samples.

Results

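The sites described here are the peaks of EFL-1::GFP on chromosome III of Caenorhabditis elegans, mapped by chromatin immunoprecipitation and sequencing (ChIP-seq). They are all peaks of the combined peak list that lie on that chromosome, 521 of 2332 sites in all (22.3%, exact Clopper-Pearson 95% interval 20.7 to 24.1%). The sites were taken by chromosome alone, without regard to any value of a site, but the chromosome was picked with its high density known from earlier results of these data.

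The study used 1 strain, YL418, as hermaphrodites at the fed L1 stage, grown at 20 °C and fixed with 2% formaldehyde. Its genotype is unc-119(ed3) III with the transgene vrIs65, in which the ges-1 promoter drives EFL-1::GFP FLAG with the efl-1 3′-UTR, together with unc-119(+). Every sample thus carries the tagged protein under an intestinal promoter, the mutant unc-119 allele and the rescuing copy, and the strain was not outcrossed. The 4 samples are 2 ChIP libraries made with goat antibodies against GFP and 2 Input libraries of unprecipitated chromatin, replicates 2 and 3 of each. The peak lists come from the ChIP libraries: 1 combined list, and 1 list of 30000 peaks for each replicate.

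EFL-1 is an E2F-family transcription factor. E2F proteins work with DP partner proteins and with pocket proteins of the retinoblastoma family, and are known for binding near the promoters of genes for DNA replication, cell division and, in the worm, development. The ges-1 promoter is active in the intestine, so the tagged protein reports on an added copy in that tissue and not on EFL-1 at its normal level and place. The autosomes of C. elegans are known for a central region that is rich in conserved and widely expressed genes and for arms with more repeats and more recombination. Coordinates are on WormBase WS220, and as no gene annotation or genome on that build was used, sites were not assigned to genes, unc-119 included, and no site sequence is printed.

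The ranks below order each list by the authors' score, and peaks of equal score by their peak number, as deposited. The score is the authors' own value and describes peaks within 1 list. Among the sites of chromosome III, 465 of 521 (89.3%) carried the highest score of the combined list, against 88.3% of all combined sites. The order among these 465 sites therefore comes only from the peak's number. Whether the replicates came from separate cultures is not stated in the labels. The read depth of the libraries is unknown, and all intervals cover counting error only.

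Chromosome III was the densest autosome in these lists. It carried 37.8 sites per Mb, against 33.1 on chromosome I, 26.4 on II, 22.6 on IV and 17.6 on V. Its density was 1.56 times that of the other 4 autosomes joined, which averaged 24.3 sites per Mb (95% interval of the ratio 1.41 to 1.72). The interval treats sites as independent. Because the chromosome was picked with this density known, no test is attached. The 521 peaks covered 0.982% of the 13.8 Mb of the chromosome, against 0.863% on I and 0.471% on V.

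Each replicate alone gave a like figure for its best 2332 peaks, which is as many as the combined list holds. Chromosome III had 36.5 such peaks per Mb in replicate 2 and 37.9 in replicate 3. Chromosome I, the next in order, had 32.2 per Mb in replicate 2 and 32.4 in replicate 3. Among the replicates' weakest peaks, ranked 15001 to 30000, the chromosomes lay much closer together. In replicate 2 such peaks numbered 158 per Mb on chromosome III, against 143 to 155 per Mb on the other autosomes. In replicate 3 they numbered 168 per Mb on III, against 144 to 150 per Mb on the others. Chromosome III was thus also the fullest autosome among weak peaks, by a small margin in replicate 2 and a larger one in replicate 3.

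The excess on chromosome III was largest among the better-ranked peaks. The highest score was shared by 1390 peaks of replicate 2 and by 2299 of replicate 3, so among those first ranks the order is that of the peak number only. Chromosome III makes up 16.7% of the autosomal length. In replicate 2 it held 25.5% of the autosomal peaks ranked 1 to 500 (exact 95% interval 21.7 to 29.6%) and 24.4% of those ranked 501 to 1000. Its share in that replicate was 21.6% for ranks 1001 to 2000, 20.7% for ranks 2001 to 3000 and 18.7% for ranks 3001 to 5000. From rank 5001 on, the shares in replicate 2 lay between 17.2% and 18.0%. That of ranks 20001 to 30000 was 18.0% (17.1 to 18.8%), still above the share of length. In replicate 3 it held 24.3% of the peaks ranked 1 to 500 (20.6 to 28.4%), 26.4% of those ranked 501 to 1000 and 23.7% of those ranked 1001 to 2000. The share in replicate 3 was 20.8% for ranks 3001 to 5000 and 18.5% for ranks 5001 to 10000, and it was higher again for ranks 10001 to 20000, at 19.2% (18.4 to 20.1%). It was 18.2% for ranks 20001 to 30000 (17.4 to 19.1%), also above the share of length. In the combined list the share was 25.2% for ranks 1 to 500 and 23.0% for ranks 2001 to 2332, with overlapping intervals. Ranks within a replicate are not independent of the combined list, which by its name joins both.

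**Figure D1:**
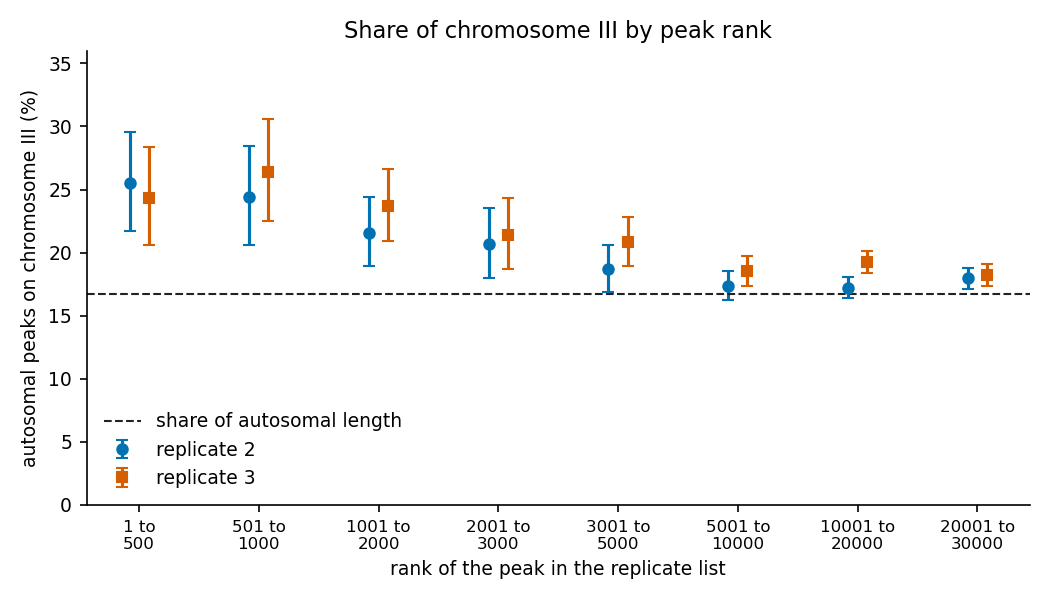
Share of autosomal peaks that lay on chromosome III (%, vertical axis) by rank in the replicate list (horizontal axis), with exact 95% intervals for replicate 2 (circles) and replicate 3 (squares); the dashed line is the 16.7% of autosomal length. The share was 25.5% and 24.3% in the first 500 peaks of replicates 2 and 3, and 18.0% and 18.2% in ranks 20001 to 30000.

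Along the chromosome, sites were not evenly spread. The fullest of the 13 complete 1 Mb windows began at 4000001 and 5000001, each with 53 sites, and at 8000001, with 50. The emptiest were the first 3 from the left end, with 19, 23 and 28 sites, and the median was 39. Every complete window of chromosome III held at least 19 sites, whereas the emptiest window had 7 sites on chromosome II, 12 on IV and 6 on V. The emptiest window of chromosome I also had 19. More than 40 sites were found in 5 of 13 complete windows of chromosome III and in 3 of 15 on chromosome I. None of the 15 on II, 17 on IV and 20 on V held more than 40. These window counts also depend on the density of each chromosome.

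The windows varied in the same way in each replicate and varied little among weak peaks. Among its best 2332 peaks, replicate 2 had 17 to 55 in each complete window of chromosome III, a 3.24-fold range. The corresponding peaks of replicate 3 numbered 23 to 54, a 2.35-fold range. Near the left end the replicates differed most in the first window, which had 17 such peaks in replicate 2 and 26 in replicate 3. Peaks ranked 15001 to 30000 numbered 132 to 175 per window in replicate 2 and 155 to 197 in replicate 3, ranges of 1.33-fold and 1.27-fold. The fold ranges rest on unlike counts, as counting error alone widens them more where counts are small. The median window had 38 and 39 best peaks in replicates 2 and 3, and 161 and 166 weak ones.

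**Figure D2:**
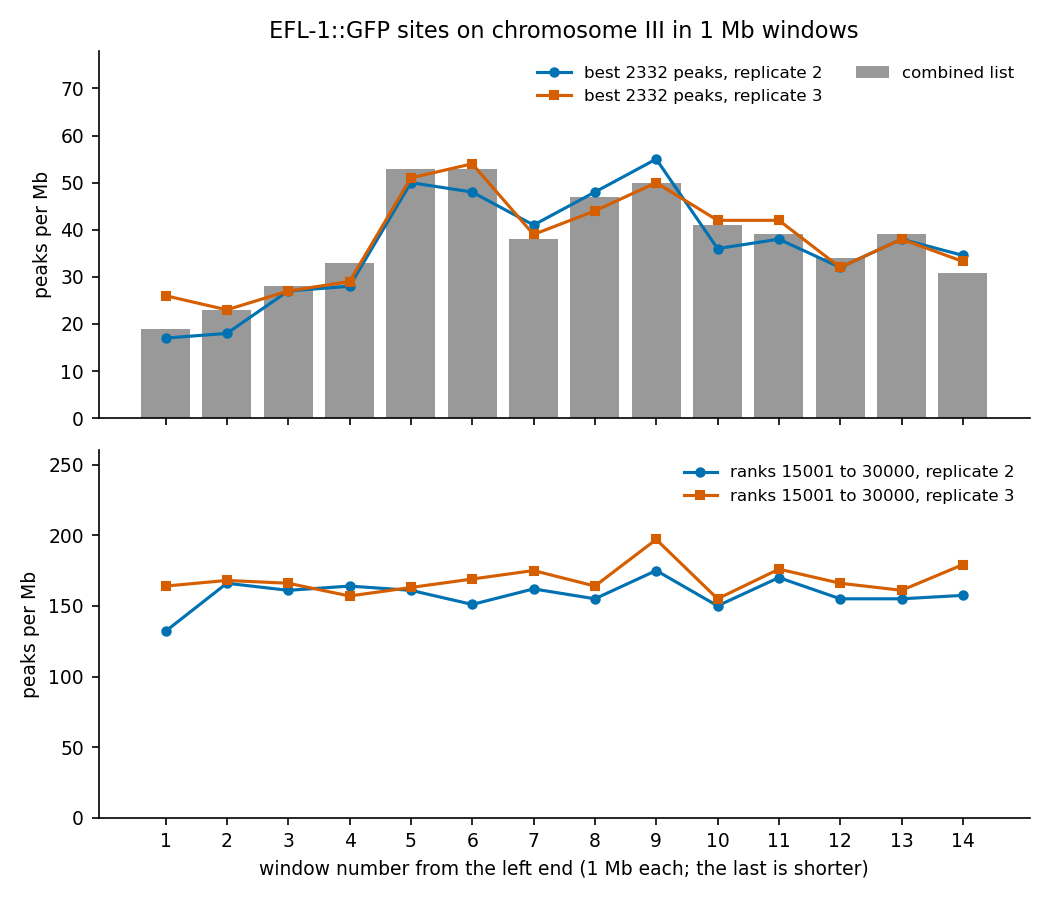
Peaks per Mb (vertical axis) in 14 successive windows of chromosome III (horizontal axis, numbered from the left end): the upper panel has the combined list as bars and the best 2332 peaks of each replicate as lines, and the lower panel the peaks ranked 15001 to 30000. Windows 5 and 6 reach 53 sites in the combined list and window 1 holds 19, while the weak peaks stay between 132 and 197 in every complete window.

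Divided into a left, a central and a right part of equal length, chromosome III had 132 sites on the left, 218 in the centre and 171 on the right. These correspond to 28.7 sites per Mb on the left, 47.5 in the centre and 37.2 on the right. The central share was 41.8% on chromosome III (37.6 to 46.2%), against 40.9% on the other autosomes and 40.5% of all combined sites. The difference of 0.90 percentage points had an interval of -3.90 to 5.77 and did not pass (Fisher's exact test, two-sided, adjusted p = 0.79). Replicate 2 had 43.3% of its best peaks on this chromosome in the central part and replicate 3 had 41.3%, while of their peaks ranked 15001 to 30000 the central part held 33.5% and 33.9%.

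The outer parts of chromosome III differed in number and in rank. Of the left sites 65 of 132 (49.2%) ranked among the best 1166 of the combined list, in the centre 109 of 218 (50.0%) and on the right 105 of 171 (61.4%). The median rank was 1194 on the left, 1178 in the centre and 897 on the right. The limit of 1166 and these medians lie within the first 2058 ranks, which share the highest score. This difference in rank is therefore one of peak number only. The share of sites with the highest score differed little, at 87.9% on the left, 89.4% in the centre and 90.1% on the right. Support followed the same order: the best 2332 peaks of both replicates held 62.9% of the left sites, 69.3% of the central and 72.5% of the right ones. The right part also had the best median rank on chromosomes I, at 995, and II, at 939, but not on IV or V. These values are descriptive and were not tested.

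The 5 best-ranked sites were spread over all 3 parts of the chromosome. The first, at 3867381 to 3867704, ranked 2 in the combined list, 3 in replicate 2 and 1 in replicate 3. The next, at 7854441 to 7854757, ranked 5 in the combined list, 4 in replicate 2 and 8 in replicate 3. The site at 8741430 to 8741743 had combined rank 8, rank 15 in replicate 2 and rank 7 in replicate 3. These 3 sites had peaks near the top of both replicate lists, with midpoints within 16.5 bp of the combined midpoint. The fourth site, at 10758989 to 10759320, ranked 13 in the combined list, 20 in replicate 2 and 11 in replicate 3. The last of the 5, at 11719369 to 11719687, ranked 18 in the combined list and 23 and 18 in replicates 2 and 3. Chromosome III supplied 23 of the 100 best combined sites, as did chromosome II, while I had 21, V 19 and IV 14. All 100 were autosomal, and the 23 were near the 23.8% of all autosomal sites that lay on chromosome III.

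Nearly every site of chromosome III had a peak in both replicates. By its name the combined list joins them, so overlap with them is not independent support. How the list was pooled is not stated. A peak of replicate 2 overlapped 493 of 521 sites by at least 1 bp (94.6%, 92.3 to 96.4%), against 95.1% of all combined sites. A peak of replicate 3 overlapped 520 of 521 (99.8%, 98.9 to 99.995%), against 99.9% of all combined sites. The replicate midpoint was displaced from the combined one by a median of 16 bp in replicate 2 and 4 bp in replicate 3, and by at most 100 bp for 92.5% and 98.1% of the sites with a peak. On chromosome III the combined positions thus lay nearer to those of replicate 3. The same held on the other autosomes, with medians of 14 to 17 bp in replicate 2 and 4 to 5 bp in replicate 3.

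The demand for a well-ranked partner separated the replicates further. Of the 521 sites, 390 (74.9%) overlapped one of the best 2332 peaks of replicate 2 and 478 (91.7%) one of the best 2332 of replicate 3, against 73.8% (replicate 2) and 90.1% (replicate 3) of all combined sites. Both sets held 358 sites (68.7%), against 66.7% of all combined sites. Another 120 sites had such a partner in replicate 3 only, 32 had one in replicate 2 only, and 11 had none. On the other 4 autosomes 1135 sites had partners in both, 358 in replicate 3 only, 128 in replicate 2 only, and 47 had none. Across the 492 sites of chromosome III with a peak in both lists, the replicate ranks had a Spearman coefficient of 0.82, against 0.79 to 0.82 on the other autosomes. The points share their libraries and many tied scores, so the coefficient is a description. Among these pairs, 30 of 492 sites ranked beyond 10000 in replicate 2 and 2 did so in replicate 3. Replicate 2 counts were 23 of 477 on I, 16 of 385 on II, 20 of 381 on IV and 17 of 352 on V. In replicate 3 the other autosomes had 0 to 2 such sites each.

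Sites without a partner were mostly low in the list. Replicate 2 had no peak at 28 sites of chromosome III, whose median combined rank was 1998.5, and 18 of these sites carried the highest score. They were spread over the chromosome, with 9 in the left part, 11 in the centre and 8 on the right. The best-ranked of them, at 5785557 to 5785846, had combined rank 781 and rank 618 in replicate 3. The next, at 9717114 to 9717403 and 5449937 to 5450226, had combined ranks 1231 and 1436 and replicate 3 ranks 955 and 1204. A single site had no peak in replicate 3. It lay at 5503280 to 5503569, with combined rank 2253 and rank 1317 in replicate 2. The lowest-ranked site of the chromosome, at 11774460 to 11774749, had combined rank 2328, rank 8185 in replicate 2 and rank 2225 in replicate 3. The next lowest were at 7087184 to 7087473, rank 2311, and at 10868912 to 10869201, rank 2309. The site at 10868912 had no peak in replicate 2.

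Peak width on chromosome III was tied to rank. Widths ran from 72 to 332 bp, and 361 of 521 sites (69.3%) had exactly the commonest width of 290 bp, against 72.2% of all combined sites. The other 160 sites ranked between 2 and 1088, and all 160 were in the best 2332 peaks of both replicates. Among them width fell steadily with rank, with a Spearman coefficient of -0.95 as a description across these sites. Sites ranked 1 to 250 had a median width of 251 bp on chromosome III (n = 55) and 250.5 bp on the other autosomes (n = 194). For ranks 251 to 500 the medians were 185 bp on chromosome III (n = 70) and 186 bp on the others (n = 178). Of the 275 sites of chromosome III beyond rank 1000, 274 had a width of 290 bp, as did 930 of 933 on the other autosomes. On chromosome III the first site at that width ranked 467, and 54.8% of the 361 sites at that width were in the best 2332 peaks of both replicates. Replicate support by width was counted on chromosome III only.

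The widest and narrowest sites stood at different ranks. The widest 3 were among the 5 best-ranked: 332 bp at 10758989, 324 bp at 3867381 and 319 bp at 11719369. The narrowest had 72 bp each and began at 13530077, 2785983 and 9776018, with combined ranks 584, 637 and 680. The widths are those the authors' peak caller gave.

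**Figure D3:**
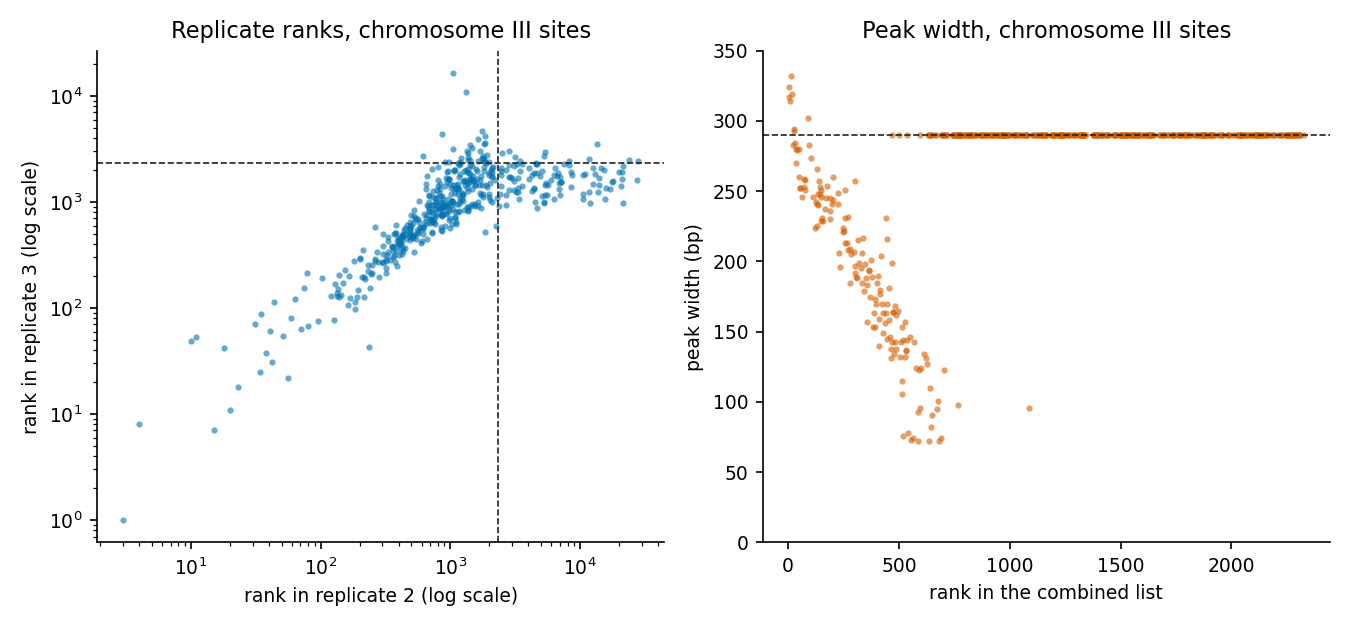
Left, rank in replicate 2 (horizontal axis, log scale) against rank in replicate 3 (vertical axis, log scale) for the 492 chromosome III sites with a peak in both lists, with dashed lines at rank 2332. Right, peak width in bp (vertical axis) against rank in the combined list (horizontal axis) for all 521 sites, with a dashed line at 290 bp: widths descend from 332 bp in the first ranks to 72 bp at ranks 584 to 680, and beyond rank 1000 all but 1 site are at 290 bp.

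Sites of chromosome III were closely spaced. Distances between sites depend on density, and the chromosome was picked with its density known. The comparison at a fixed distance below is therefore not separate from that choice. The distance between neighbouring midpoints had a median of 16.3 kb and a mean of 26.5 kb on chromosome III, against medians of 19.2 kb on I, 22.0 kb on II, 26.1 kb on IV and 32.6 kb on V. The next site was at most 5 kb away for 114 of 520 distances (21.9%, 18.4 to 25.7%), against 19.7% on the other autosomes and 19.4% of all combined sites. This difference of 2.21 percentage points (-1.67 to 6.39) did not pass (Fisher's exact test, two-sided, adjusted p = 0.72). It was 4.34 without replicate 2, 5.06 without replicate 3 and 5.19 with a limit of 10 kb (Fisher's exact test, unadjusted p = 0.036, 0.015 and 0.027; adjusted p = 0.35, 0.15 and 0.27). Chromosome IV, with fewer sites per Mb, had 23.0% of its distances within 5 kb.

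Scaled to the density of the chromosome, close neighbours were not more frequent on chromosome III. Distances of at most 0.25 of the chromosome's mean made up 26.5% on III (22.8 to 30.6%), against 28.5% on I, 29.5% on II, 32.7% on IV, 33.2% on V and 29.4% of all combined sites. The difference from the other 4 joined was -4.23 percentage points (-8.49 to 0.28), and it did not pass (Fisher's exact test, two-sided, adjusted p = 0.70). Its size depended on the setting: it was -1.87 without replicate 2, -0.34 without replicate 3, -1.14 with a limit of 0.5 of the mean and -6.58 in the 1166 best-ranked combined sites, none of which passed after adjustment. The coefficient of variation of the distances was 1.16 on chromosome III, 1.17 on I, 1.24 on II, 1.33 on IV and 1.49 on V, so the order of the chromosomes was the reverse of their order in density.

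**Figure D4:**
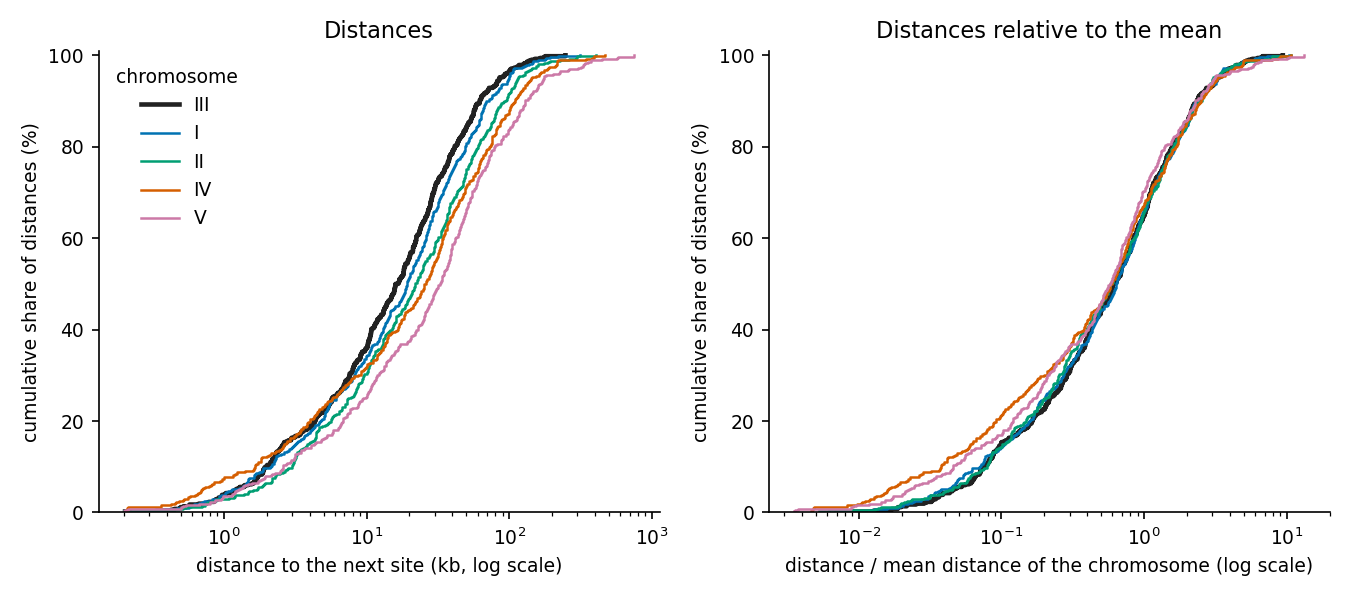
Cumulative share of distances between neighbouring sites (%, vertical axis) on chromosome III (thick line) and on I, II, IV and V, in kb on the left and divided by the chromosome's mean distance on the right (horizontal axes, log scale). The median is 16.3 kb on III and 32.6 kb on V; after division by the mean the 5 curves lie close together, with IV and V highest at short distances.

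Stretches of successive sites at most 5 kb apart were short. On chromosome III 203 of 521 sites (39.0%) belonged to 89 such runs, of which 70 were pairs, 13 had 3 sites and 6 had 4. The share of sites in runs was 37.3% on I, 33.9% on II, 39.9% on IV and 28.7% on V, and no autosome had a run of more than 4. Chromosome IV also had 6 runs of 4, and chromosomes I, II and V had 1, 4 and 2. Sites in runs and single sites on chromosome III had like ranks, with medians of 1107 and 1034.5, and 72.4% of sites in runs (65.7 to 78.4%) and 66.4% of single sites (60.9 to 71.5%) were in the best 2332 peaks of both replicates.

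The tightest of the 6 runs of 4 sites lay at 10904306 to 10907937, with 3342 bp between its outer midpoints. Its sites had combined ranks 2038, 992, 1762 and 1131, ranks 1993, 1169, 1980 and 1620 in replicate 2 and ranks 1814, 968, 1192 and 1010 in replicate 3. All 4 of its sites were in the best 2332 peaks of both replicates, which held for no other of the 6 runs. The annotation of another build, WBcel235, places unc-119, which the transgene also carries, in this neighbourhood of chromosome III. Coordinates were not converted between builds, and the part of the added unc-119 copies in these 4 sites was not tested. The run at 1921261 to 1926763 was its opposite, with none of its 4 sites in both sets. Its replicate 2 ranks were 2708, 4455 and 4646, with no peak for the remaining site, against ranks of 885 to 1667 in replicate 3. The run at 7272038 to 7278738 held the best-ranked member of any of the 6, a site of combined rank 30, beside sites of rank 774, 1550 and 1567. The others lay at 5498978 to 5504490, 9614227 to 9620394 and 12424030 to 12429940, with best ranks of 256, 421 and 147 and worst ranks of 2253, 2055 and 2119. In these 4 runs sites of early and late rank thus stood side by side. The first 2058 combined ranks share the highest score. In the runs at 7272038 and 9614227 the order was therefore that of the peak number only.

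The closest pair of sites on the chromosome, at 4649285 to 4649574 and 4649488 to 4649777, had midpoints 203 bp apart and overlapped. It was the only overlapping pair on chromosome III. Both sites matched the same peak of replicate 2, of rank 728, and the same peak of replicate 3, of rank 942. The pair thus rests on 1 peak per replicate, although its combined ranks were 812 and 2150.

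Gaps on chromosome III were modest in size. Of its 520 distances 18 exceeded 100 kb. The other autosomes had 24 of 498 on I, 33 of 403 on II, 49 of 395 on IV and 59 of 368 on V. Wide gaps are fewer where sites are denser, so these counts are not separate from the density. The widest gap, between a site ending at 535512 and one starting at 783345, had 248 kb between midpoints, against a widest gap of 314 kb on I and 751 kb on V. The next were between 3070285 and 3248682, at 179 kb, and between 1243488 and 1418726, at 176 kb. All 3 lay in the left part. None was empty of replicate peaks: the widest held 72 peaks of replicate 2 and 73 of replicate 3, of which 5 and 2 were among the best 2332. The gap of 179 kb held 1 and 0 of the best 2332 peaks of replicates 2 and 3, and that of 176 kb held 2 and 0. The replicate lists had 4556 and 4909 peaks on the whole chromosome, so evenly spread peaks would also fall in gaps this wide. The first site began at 14770, and the last ended at 13771314, 10.1 kb from its midpoint to the last peak end in any list.

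Replicate peaks on chromosome III that were left out of the combined list were more numerous in replicate 2. Of its 503 best peaks on the chromosome, 112 (22.3%) overlapped no combined site, against 24.6% on the other autosomes. In replicate 3 it was 45 of 523 (8.60%), against 8.96%. Of the 112, 56 had a peak anywhere in the list of replicate 3, and of the 45, 17 had one in that of replicate 2. Such partners were counted on chromosome III only, so whether these shares differ from those of other autosomes is not known. The best-ranked such peak of replicate 2, at 4317065 to 4317368 with rank 1111, had no partner in replicate 3 and lay 3612 bp from the nearest site. The next, at 12456768 to 12457071 with rank 1163, also had none and lay 783 bp from a site. The peak at 8443540 to 8443843, rank 1174, had a partner of rank 11858. In replicate 3 the best-ranked were at 5879301 to 5879580, 6280130 to 6280409 and 349836 to 350115, with ranks 1629, 1638 and 1648. Only the second of these had a partner, of rank 4423. All 6 peaks carried the highest score of their replicate list.

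In all, 10 properties were compared between the sites of chromosome III and those of the other 4 autosomes, and none passed after adjustment (Fisher's exact test, two-sided, Benjamini-Hochberg, lowest adjusted p = 0.70; 0 of 10 had an unadjusted p under 0.05, the lowest being 0.070). The intervals of the differences limit how large a difference could be. For a peak in replicate 2 the difference was -1.12 percentage points (-3.56 to 0.84), and for a peak in replicate 3 it was -0.07 (-0.96 to 0.28). For the best peaks of replicate 2 it was -0.86 (-5.24 to 3.26), for those of replicate 3 it was 2.24 (-0.78 to 4.83), and for both it was 0.67 (-3.99 to 5.13). The share with the highest score differed by 0.76 (-2.52 to 3.64) and the share at 290 bp by -1.63 (-6.24 to 2.78). These tests treat sites as independent, which neighbours are not, and they concern these lists only. The share with a next site within 5 kb also depends on the density known beforehand. No difference was detected in any of the 10 properties, within the limits of these intervals.

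**Figure D5:**
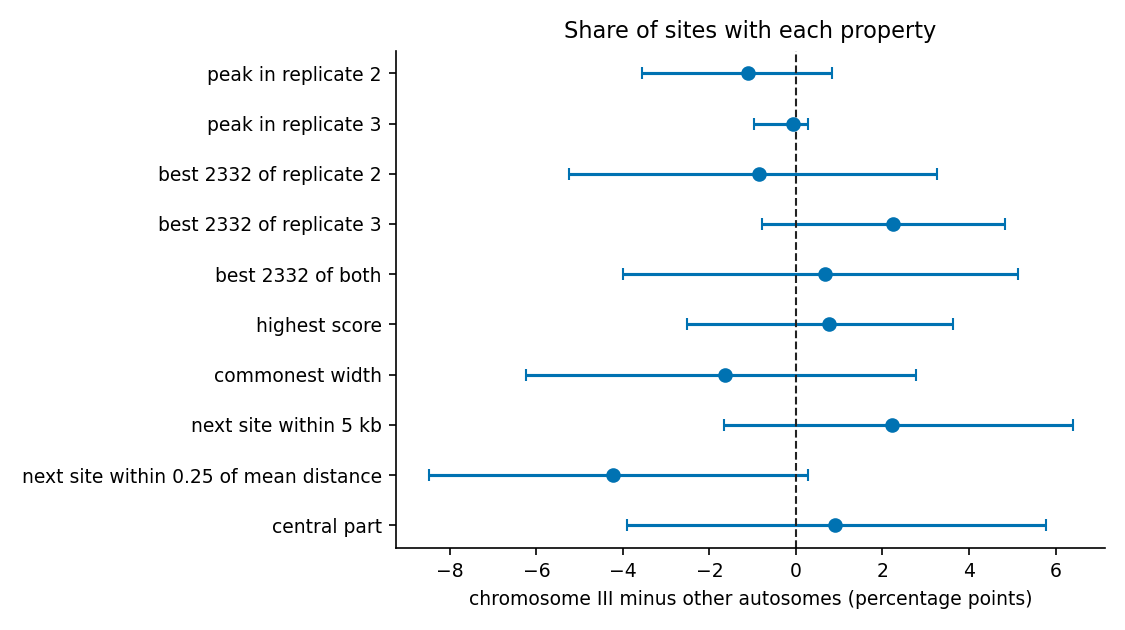
Difference in the share of sites with each of 10 properties, chromosome III minus the other 4 autosomes (percentage points, horizontal axis; points with 95% Newcombe intervals). All 10 intervals include 0, and the farthest point from it is -4.23 for a next site within 0.25 of the mean distance.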

How the data were processed

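Peaks were analysed from 3 deposited lists: 1 for each of ChIP replicates 2 and 3, and a combined list. Per the file headers, coordinates are on WormBase WS220. Each row is marked as an SPP peak taken through IDR, a method that scores agreement between replicates. The deposited score is not named by the headers and was used only to rank peaks within a list. Start and end are as the authors deposited them. The aligner, tool versions, IDR threshold, pooling and read depth are not given in the sources. No values of the Input libraries were used, and no immunoprecipitation without the tagged protein was analysed, so its binding and unspecific recovery of open chromatin cannot be told apart.

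Sites were matched to the best-ranked replicate peak that overlapped by at least 1 bp. Chromosome length was the largest peak end in any list. Chromosome III was compared with chromosomes I, II, IV and V by two-sided Fisher's exact tests, adjusted over 10 tests by Benjamini-Hochberg. Shares have exact Clopper-Pearson 95% intervals, differences Newcombe intervals. Percentages given for all combined sites include X. Named sites were the 5 best, 3 lowest and 3 widest, the extremes of spacing and windows, the best-ranked unmatched sites and all 6 tied longest runs. The 3 narrowest sites were chosen after their values were seen. Python 3.11.15, pandas 2.3.3 and SciPy 1.17.1 were used, and the functions were tested on simulated lists. The chromosome, its properties and the tests were chosen with earlier results of these data known.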

Additional observations from a re-analysis of the deposited data

How the results depend on the processing

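Of 50 recalculations under other settings, 42 kept their direction and, where tested, their side of the threshold (adjusted p of 0.05). The 7 recalculations of the density ratio among the 50 had no p-value. A further 2 gave a difference of exactly 0, both for partners in replicate 3 of the 1166 best-ranked combined sites. Other settings were run for 9 of the 10 tested properties, all but the highest score, and none of the 9 passed under any of them (Fisher's exact test, lowest adjusted p = 0.15). The ratio of densities of chromosome III to the other autosomes lay between 1.27 and 1.64. It moved beyond its interval only after merging sites within 20 kb, to 1.27 (1.09 to 1.47). That distance exceeds the median spacing on chromosomes III (16.3 kb) and I (19.2 kb) but not on II, IV or V. Merging took the count from 521 to 231 on III and from 1668 to 909 on the others, so this setting itself depends on density. After merging within 20 kb the difference in central share was -5.93 percentage points, opposite in sign. The difference for sites in the best peaks of both replicates was -1.16 under reciprocal overlap of 50%, -0.27 in the 1166 best-ranked combined sites and -1.78 with the best 4664 replicate peaks, each opposite in sign. The difference for replicate 2 was 2.39 with its best 1166 peaks, also opposite. The cause was not tested. With 1 replicate alone the ratio of densities was 1.59 without replicate 2 and 1.49 without replicate 3. The adjusted p for next sites within 5 kb ranged from 0.15 to 0.79 over its settings (Fisher's exact test), and that for distances relative to the mean from 0.35 to 0.91. No paired analysis was possible because values exist for the ChIP group alone, and Input samples of the same numbers were not analysed here.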
